A study of Homo sapiens with 12 samples.

Results

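The human genome splits the instructions for respiratory complex I between nucleus and mitochondrion, and 59 of the 58735 genes in the deposited table fall on one side or the other by a rule on names and location. The rule took the 13 protein-coding genes of mitochondrial DNA and 46 protein-coding nuclear genes whose symbols start with NDUFA, NDUFB, NDUFC, NDUFS or NDUFV, the NDUFAF assembly factors among them. It used no measured value. NDUFB9 and NDUFAF6, both on chromosome 8, lie outside it. RNA came from the cell line SEM, derived from acute lymphoblastic leukaemia of the B cell precursor type and bearing a KMT2A-AFF1 fusion, which was either wild type (WT) or labelled as knockout (KO) for IKZF1, the gene of the lymphoid transcription factor Ikaros. Both genotypes were left untreated or kept in 1 µM AraC (cytarabine, a cytidine analogue that stalls DNA replication) for 16 hours, which gives 4 groups of 3 libraries. All cells grew in RPMI medium with 10% fetal bovine serum, and the labels name neither the editing method nor how many knockout clones were used. Replicates are numbered 1 to 3 but not said to come from separate cultures, so p-values rest on the spread among the libraries alone, and that spread may be technical.

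Complex I (NADH:ubiquinone oxidoreductase) is the entry point of electrons from NADH into the respiratory chain, and it pumps protons across the inner mitochondrial membrane. Its peripheral arm holds the N module, which oxidises NADH, and the Q module, which reduces ubiquinone, while the P module forms the membrane arm. Nuclear NDUF genes encode the N and Q modules and the accessory part of the membrane arm, and the MT-ND genes encode the proton-pumping core of that arm. The other mitochondrial messages encode subunits of complexes III (MT-CYB), IV (MT-CO1, MT-CO2, MT-CO3) and V (MT-ATP6, MT-ATP8). Mitochondrial DNA is transcribed into long RNAs from both strands that are then cut into single messages, and MT-ND6 is the one protein-coding gene read from the opposite strand to the rest.

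Short stretches of the mitochondrial genes (GENCODE 29 transcripts, GRCh38) are printed because gene ends that overlap or meet decide which reads can be given to which gene. MT-ATP8 and MT-ATP6 share 46 bases (chrMT:8527-8572, + strand), written in capitals at the end of the one (chrMT:8503-8572) and the start of the other (chrMT:8527-8596).
MT-ATP8: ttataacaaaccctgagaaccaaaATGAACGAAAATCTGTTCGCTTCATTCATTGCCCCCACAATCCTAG
MT-ATP6: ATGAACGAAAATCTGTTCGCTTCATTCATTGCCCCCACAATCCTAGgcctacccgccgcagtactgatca
The shared stretch is 22.2% of MT-ATP8 and 6.75% of MT-ATP6. MT-ND4L shares its last 7 bases, in capitals, with MT-ND4 (chrMT:10727-10766, + strand).
MT-ND4L: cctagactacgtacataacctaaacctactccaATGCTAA
MT-ND5 (chrMT:12337-14148, + strand) ends at the base beside the end of MT-ND6 (chrMT:14149-14673, - strand), so the 2 genes meet tail to tail, and a library without strand information cannot tell their reads apart where transcripts run past these ends. Their last 40 bases (chrMT:14109-14148 and chrMT:14149-14188), each on its own strand, have no base in common.
MT-ND5: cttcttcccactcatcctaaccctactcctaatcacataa
MT-ND6: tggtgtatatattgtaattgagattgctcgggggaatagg
The MT-ND6 transcript is 7.05% C and 35.6% G, while the 12 genes of the + strand range from 29.5% to 36.0% C and from 6.28% to 16.2% G.

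For the nuclear side, upstream sequences are shown of 4 genes on which the results turn (RefSeq promoters on GRCh38.p14, only the bases in front of any annotated exon). NDUFA12 (chr12:95003771-95003947, - strand), a subunit where the N module joins the rest of the peripheral arm, and NDUFB4 (chr3:120596086-120596308, + strand), a membrane arm subunit, hold the motif of the transcription factor NRF1 (GCGCA, any base, GCGC), in capitals. NDUFAF4 (chr6:96897892-96898141, - strand), an assembly factor, holds the ETS motif CCGGAAG in capitals, and NDUFAB1 (chr16:23596357-23596566, - strand), the mitochondrial acyl carrier protein, holds none of the motifs searched.
NDUFA12: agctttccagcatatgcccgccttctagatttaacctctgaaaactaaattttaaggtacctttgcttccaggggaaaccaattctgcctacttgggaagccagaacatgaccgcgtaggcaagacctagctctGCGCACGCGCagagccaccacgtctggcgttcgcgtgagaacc
NDUFB4: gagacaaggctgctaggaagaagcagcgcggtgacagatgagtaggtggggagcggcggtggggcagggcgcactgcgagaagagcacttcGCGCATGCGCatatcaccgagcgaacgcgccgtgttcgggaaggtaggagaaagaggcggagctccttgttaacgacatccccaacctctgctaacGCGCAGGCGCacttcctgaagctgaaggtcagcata
NDUFAF4: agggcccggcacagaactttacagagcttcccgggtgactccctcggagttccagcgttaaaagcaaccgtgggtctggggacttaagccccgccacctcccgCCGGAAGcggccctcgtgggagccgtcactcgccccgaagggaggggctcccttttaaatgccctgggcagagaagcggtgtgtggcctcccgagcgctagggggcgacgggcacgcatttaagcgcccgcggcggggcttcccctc
NDUFAB1: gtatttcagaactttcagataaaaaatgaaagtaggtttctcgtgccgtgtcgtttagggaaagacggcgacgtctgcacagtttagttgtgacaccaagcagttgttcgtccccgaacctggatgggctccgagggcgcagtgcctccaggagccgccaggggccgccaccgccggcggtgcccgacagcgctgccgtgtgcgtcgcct
Of the 46 nuclear members, 40 had a promoter entry, which spans 250 bases before to 50 after the annotated start. The NRF1 motif, searched on both strands, was in 7 of the 40 (17.5%) and in 6.28% of all 27305 promoters. The ETS motif was in 6 (15%) against 10.7%, and the YY1 motif AAGATGGC in 6 (15%) against 3.03%. A match is a match of letters and shows no binding.

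Each library held 16342979 to 22733932 reads assigned to genes, of which 2.19% to 2.74% fell in the 13 mitochondrial coding genes and 0.24% to 0.26% in the 46 nuclear genes. IKZF1 itself stood at 22.1, 22.6 and 22.4 FPKM in untreated WT and at 20.5, 21.5 and 21.3 in untreated KO libraries, and at 14.2, 14.8 and 15.3 against 14.2, 14.3 and 14.98 with AraC. FPKM is the number of sequenced fragments per length of gene and library size, and a total over the whole gene does not check an edit within it, so KO is used here as the label. Of 8 B cell precursor markers 7 reached 1 FPKM, with a summed level of 549 to 568 FPKM in untreated WT, 362 to 391 in AraC-treated WT, 785 to 790 in untreated KO and 549 to 564 in AraC-treated KO libraries. No T cell or erythroid marker of the lists reached 1 FPKM. Of 4 myeloid markers 1 did, LYZ, and their summed level was 0.796 to 1.79 FPKM in untreated WT, 3.59 to 4.53 in AraC-treated WT, 0.161 to 0.717 in untreated KO and 1.46 to 2.61 in AraC-treated KO libraries. The part of the B cell precursor and myeloid marker levels in the differences below was not tested. One library stood apart within the mitochondrial genes: in KO AraC replicate 3 all 12 genes of the + strand lay above the mean of the 2 other libraries of its group, by a median of 0.30 on the log2 scale, while MT-ND6 lay below it by a log2 difference of -1.57. RN7SL2, the RNA of the signal recognition particle, was at 39.1 FPKM in that library and between 260 and 617 in the other 11; it was chosen after its values were seen, and its part in the result was not tested.

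The mitochondrial genes were the more abundant side by far. Summed over the 13 genes they reached 25014 to 30460 FPKM, which was 8.84% to 11.02% of all FPKM in a library, and the 46 nuclear genes together reached 1164 to 1598 FPKM. MT-CO1, the catalytic subunit of complex IV, led with a mean of 4488 FPKM over the 12 libraries. MT-CO3 and MT-CO2, the other mitochondrial subunits of that complex, followed with group means between 3157 and 3845 FPKM. Within the complex I genes the order by level was MT-ND4L and MT-ND4, then MT-ND1, MT-ND3 and MT-ND2, then MT-ND5 and last MT-ND6; MT-ND4L and MT-ND4 ranged from 2172 to 2972 and from 2081 to 2819 FPKM and could not be ordered against each other. The ranges of MT-ND1, MT-ND3 and MT-ND2 also overlapped, and so did those of MT-ND5 and MT-ND6. MT-ATP8, the shortest gene, was the lowest of the 13 in all libraries but KO AraC replicate 3, at 395 to 547 FPKM. Near-identical copies lie on chromosome 1. MTATP6P1 matches 98.5% of MT-ATP6 and held 220 to 294 FPKM. MTND2P28 matches 98.4% of MT-ND2 and held 100 to 147 FPKM, and MTCO1P12 matches 98.7% of MT-CO1 and held 19.04 to 27.04 FPKM. Reads could go to either copy or be left uncounted, so the levels of these 3 mitochondrial genes are uncertain. The FPKM of a copy does not bound that uncertainty. Only these 3 copies were compared, and copies of the other mitochondrial genes were not looked for.

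**Figure D1:**
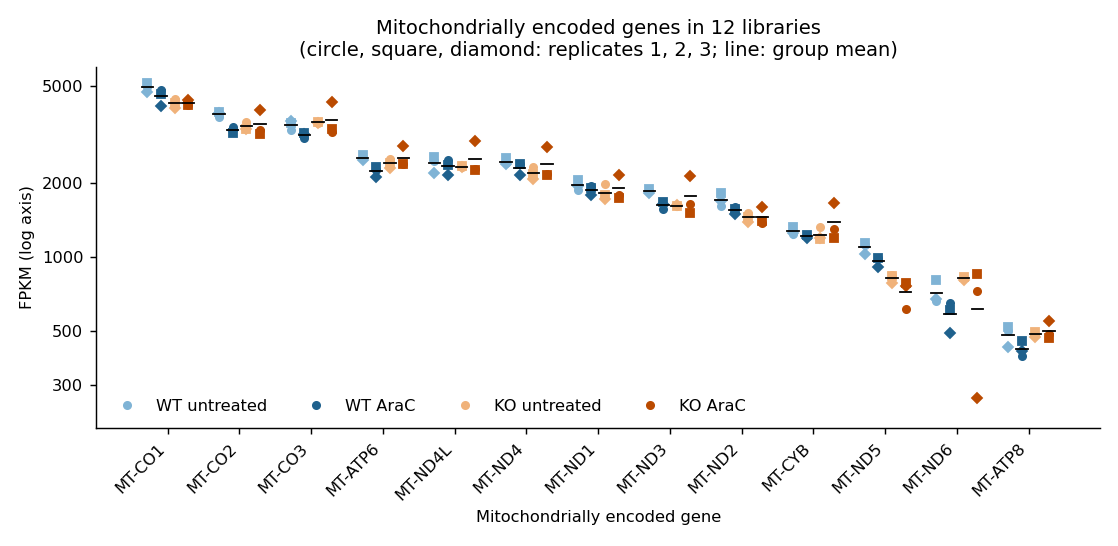
Level of the 13 mitochondrially encoded genes in FPKM on a log axis, with a point for each of the 12 libraries and a line at each group mean. The KO points of MT-ND5 (615 to 844 FPKM) lie below all WT points (913 to 1137 FPKM), and KO AraC replicate 3 is low for MT-ND6 (266 FPKM) and high for most other genes.

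Among the nuclear genes the 3 highest were NDUFS5, a membrane arm subunit on the intermembrane face, with a mean of 243 FPKM, NDUFB7, another subunit of that face, with 110 FPKM, and NDUFA1, a small membrane subunit, with 82.2 FPKM. At the other end, 3 members did not pass the filter of 1 FPKM in at least 3 libraries and were not tested. NDUFV2, a core iron-sulfur subunit of the N module, stood at 0.31 to 0.76 FPKM, NDUFA7 at 0.17 to 1.07 FPKM, and the readthrough gene NDUFC2-KCTD14 at 0 in all 12 libraries. All exonic bases of NDUFC2-KCTD14, 28.4% of those of NDUFV2 and 33.5% of those of NDUFA7 are shared with other annotated genes, and reads in shared exons may have been left uncounted; the part of this in their low values was not tested. NDUFA7 reached 0.82, 1.07 and 0.95 FPKM in untreated WT and 0.17 to 0.68 FPKM in the 9 other libraries, with no overlap. These values rest on 4 to 24 reads per library, and no share of genes separated in this way is given. Other members with much shared exon sequence are NDUFS7 (49.1%), NDUFB8 (48.5%), NDUFB11 (44.9%, with RBM10 on the opposite strand) and NDUFA1 (44.5%, with RNF113A on the opposite strand), and their values carry that limit.

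The first comparison asks how these genes stood after AraC in WT cells. Of the 43 nuclear genes tested, 20 were lower with AraC and 2 were higher, and of the 13 mitochondrial genes 1 was lower and none higher, in limma with Benjamini-Hochberg adjustment over all 13300 genes tested and a threshold of 0.05. Across all genes tested 49.7% passed, 24.1% higher and 25.6% lower. The median log2 difference was -0.16 over the nuclear genes, -0.14 over the mitochondrial genes and -0.01 over all genes on the deposited scale; with TPM scaling these medians were 0.03, 0.06 and 0.16 and with quantile normalization -0.12, 0.03 and -0.01, so the sign of both gene sets flips with the scaling. The median over all genes rose with TPM scaling as well, and the nuclear median lay below it on each of these scales. With TPM scaling 10 nuclear genes were higher and 10 lower, and with plain read totals 8 and 12. Under all 4 scalings (deposited, TPM, plain totals, quantile) 8 nuclear genes were called lower and 2 higher. Shares over all genes, here and below, are those of the deposited scale and give no background for counts under other scalings. These are bulk libraries, in which fewer cells of a type and less RNA per cell cannot be told apart.

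Assembly factors held the largest nuclear decrease that the test called in WT cells. NDUFAF3, which works in the assembly of the Q module, stood at 27.4, 27.8 and 27.4 FPKM in untreated and at 17.9, 18.9 and 17.4 FPKM in AraC-treated WT libraries. The groups did not overlap, and the log2 difference was -0.59 ± 0.05 (SE, limma adjusted p = 6.8e-06). NDUFAF4, its partner in assembly, changed by -0.33 (limma adjusted p = 0.0033) and NDUFAF8, which acts on NDUFAF5, by -0.35 (limma adjusted p = 0.0022). The 4 other assembly factors tested, NDUFAF1, NDUFAF2, NDUFAF5 and NDUFAF7, did not pass, with log2 differences of -0.06, -0.16, 0.18 and -0.06.

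In the membrane arm, 11 of 20 tested genes were lower in WT cells with AraC and 1 was higher. NDUFB4 stood at 58.5, 58.7 and 64.7 FPKM in untreated and at 39.2, 41.3 and 42.2 FPKM in treated libraries. NDUFAB1 went from 57.6, 58.9 and 59.5 FPKM to 40.1, 41.1 and 42.7 FPKM, and NDUFA1 from 90.8, 89.98 and 91.5 FPKM to 62.5, 64.2 and 70.1 FPKM. For each of these genes every treated library lay below every untreated one, with log2 differences of -0.56, -0.50 and -0.47 (limma adjusted p = 2.2e-05, 7.3e-06 and 3.7e-05). NDUFS5, the most abundant nuclear member, moved from 250, 247 and 261 FPKM to 184, 176 and 201 FPKM, a log2 difference of -0.44 (limma adjusted p = 0.0012). The one membrane arm gene that rose was NDUFB1, a small accessory subunit, from 13.4, 16.2 and 15.6 FPKM to 17.1, 17.7 and 18.5 FPKM (log2 difference 0.23, limma adjusted p = 0.017).

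In the peripheral arm, 2 of 8 tested N module genes were lower and 1 higher, and in the Q module 3 of 6 were lower. Over all genes 25.6% were lower and 24.1% higher, so the 2 of 8 are near that share. NDUFS6, a zinc-binding N module subunit, went from 67.5, 64.2 and 65.2 FPKM to 50.1, 52.3 and 50.4 FPKM (log2 difference -0.36, limma adjusted p = 6.6e-05). NDUFS4, a late-joining N module subunit, went the other way, from 27.6, 27.9 and 26.3 FPKM to 30.4, 31.4 and 31.7 FPKM (log2 difference 0.19, limma adjusted p = 0.0075). The core subunits NDUFS1, NDUFV1, NDUFS3 and NDUFS8 did not pass, with log2 differences of -0.00, -0.06, -0.06 and -0.06. NDUFA4, which despite its name belongs to complex IV, was lower by a log2 difference of -0.24 (limma adjusted p = 0.00039).

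On the mitochondrial side MT-CO2 was the single call in WT cells, from 3745, 3911 and 3879 FPKM to 3407, 3214 and 3293 FPKM (log2 difference -0.22, limma adjusted p = 0.042). The groups of MT-CO2 did not overlap, and neither did those of 7 other mitochondrial genes, all lower in treated libraries; among all genes 31.1% were separated in that direction. The call of MT-CO2 depends on the scaling, since none of the mitochondrial genes passed with TPM scaling. Without KO AraC replicate 3, which enters this comparison only through the shared estimate of the spread, 7 of the 13 passed, all lower. Without KO AraC replicate 1, 2 passed, and none did without WT untreated replicate 1 or 2, WT AraC replicate 1 or 3, or any 1 of the 3 untreated KO libraries.

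**Figure D2:**
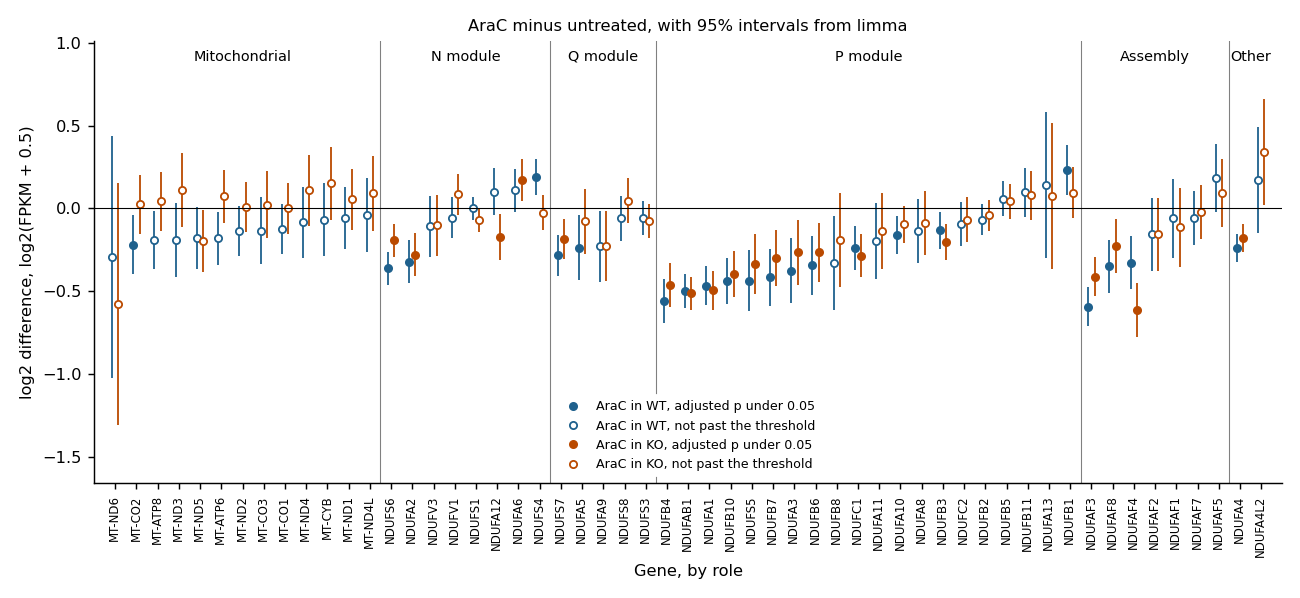
Log2 difference between AraC-treated and untreated libraries, with 95% limma intervals, for the 13 mitochondrial and the tested nuclear genes ordered by role, apart from a gene not reported here, in WT (blue) and KO (orange) cells on the deposited scale. NDUFAF3, NDUFB4, NDUFAB1 and NDUFA1 lie below 0 in both genotypes under all 4 scalings, and MT-ND6 has the widest interval.

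In KO-labelled cells AraC went with 18 of 43 nuclear genes lower and 1 higher, and with no call among the 13 mitochondrial genes. Here 44.4% of all genes passed, 19.8% higher and 24.7% lower. The nuclear median was -0.14 and the mitochondrial 0.04, against -0.03 over all genes; with TPM scaling they were -0.02, 0.18 and 0.09. The groups of 21 nuclear genes were separated with treated libraries lower, and those of no mitochondrial gene; among all genes 28% were separated that way. At an unadjusted p under 0.05, 1 mitochondrial gene passed on the deposited scale, limma-voom on recovered reads called 2, both lower, TPM scaling called 7 and plain totals 4, all higher. Without KO AraC replicate 2 the calls on the deposited scale were 2, both lower. TPM scaling split the nuclear calls into 8 higher and 9 lower, and plain totals into 6 and 10. The direction called for the mitochondrial genes in KO cells thus differs with the scaling and the tool.

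By name, 17 nuclear genes were lower with AraC in both genotypes: NDUFS5, NDUFB7, NDUFA1, NDUFB10, NDUFS6, NDUFB4, NDUFAB1, NDUFB3, NDUFA2, NDUFAF8, NDUFB6, NDUFAF3, NDUFA3, NDUFA4, NDUFAF4, NDUFC1 and NDUFS7. Only NDUFA1, NDUFA2, NDUFAB1, NDUFAF3, NDUFB10 and NDUFB4 were called lower in both genotypes under deposited, TPM, plain total and quantile scaling alike. NDUFS6 and NDUFA3 held that call in WT cells only, and NDUFAF4 and NDUFC1 in KO cells only. The other genes held it in neither genotype. With quantile normalization NDUFS5 went from -0.44 to -0.02 in WT and from -0.34 to -0.07 in KO cells. Only NDUFB3 changed sign under these scalings. Its log2 difference in WT cells turned from -0.13 to 0.06 with TPM scaling, 0.02 with plain totals and 0.05 with quantile normalization. No share over all genes is given for the 17. NDUFAF4 held the largest decrease called among the members in KO cells, from 20.9, 23.9 and 21.4 FPKM to 14.6, 12.6 and 15.5 FPKM (log2 difference -0.61, limma adjusted p = 5.5e-05). Its groups did not overlap. NDUFAB1 went from 60.0, 65.5 and 64.8 FPKM to 46.7, 41.9 and 44.1 FPKM and NDUFA1 from 95.8, 103 and 104 FPKM to 76.1, 67.2 and 71.0 FPKM, with log2 differences of -0.51 and -0.50 (limma adjusted p = 7.7e-06 and 3.1e-05). NDUFB4 and NDUFAF3 followed with -0.46 and -0.41 (limma adjusted p = 0.00011 for both). NDUFA6, an accessory subunit of the peripheral arm, was the one gene that rose, by 0.17 (limma adjusted p = 0.035), and its groups overlapped.

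No share over all genes is given either for the 19 nuclear genes that passed in neither AraC comparison. They include the core subunits NDUFV1, NDUFS1, NDUFS3 and NDUFS8, whose log2 differences in KO cells were 0.09, -0.07, -0.08 and 0.05. Among the assembly factors, NDUFAF3, NDUFAF4 and NDUFAF8 were lower in KO cells and the 4 others did not pass, with differences of -0.11 for NDUFAF1, -0.16 for NDUFAF2, 0.09 for NDUFAF5 and -0.02 for NDUFAF7. Gene length went along with the size of the change as a description: the 20 tested nuclear NDUF genes under 2000 bases had a median log2 difference of -0.33 with AraC in WT cells and the 23 longer ones -0.10, while among all protein-coding genes the medians were -0.11 for 866 short and 0.01 for 9568 longer genes. Level went along with it too, in the NDUF genes and in all protein-coding genes alike. The Spearman correlation of mean FPKM with the log2 difference was -0.39 and -0.39 in WT cells. In KO cells it was -0.43 and -0.36. The shares over all genes in the text are not matched for level or length. The part of length or level in the result was not tested. Among 17 promoters of the genes lower in WT cells with AraC, 2 held the NRF1 motif, 3 the ETS motif and 2 the YY1 motif, and among 20 promoters of the other tested members 5, 3 and 3 did.

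The next comparison sets KO-labelled against WT cells without AraC; it shares the untreated WT libraries with the AraC comparison in WT cells, so the values of both are not independent. MT-ND5, MT-ND2 and MT-CO1 were lower in KO cells, and 10 of 43 nuclear genes were higher, led by NDUFA12 and NDUFS4 of the N module. Across all genes 27.5% passed, 14.9% higher and 12.6% lower. The median log2 difference was 0.06 over the nuclear genes, -0.10 over the mitochondrial genes and 0.01 over all genes; these signs of the members' medians held under TPM, plain total and quantile scaling. Under all 4 scalings 9 nuclear genes were called higher, 1 lower, and 2 mitochondrial genes lower. Without WT untreated replicate 1 the nuclear calls were 5 higher and 0 lower, and without KO untreated replicate 3 they were 5 and 1. The mitochondrial calls were 1 without WT untreated replicate 2, WT untreated replicate 3, KO untreated replicate 2 or KO untreated replicate 3, and 5 without KO AraC replicate 3, all lower.

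MT-ND5, a large proton-pumping subunit of the membrane arm, stood at 1123, 1137 and 1028 FPKM in untreated WT and at 844, 835 and 784 FPKM in untreated KO libraries. With AraC it was at 997, 989 and 913 FPKM in WT and at 615, 784 and 762 FPKM in KO libraries. Every KO library lay below every WT library, treated or not. The log2 difference was -0.42 ± 0.09 (SE, limma adjusted p = 0.0038) without AraC and -0.43 ± 0.09 (limma adjusted p = 0.003) with it, which is 1.33-fold and 1.35-fold lower; both calls held under all 4 scalings, and without KO AraC replicate 3 the second was -0.47 (limma adjusted p = 0.0035). As a share of the 13-gene sum MT-ND5 took 3.65% to 3.96% in the 6 WT and 2.41% to 3.17% in the 6 KO libraries.

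MT-ND6, which lies tail to tail with it on the other strand, did not follow. It stood at 665, 804 and 677 FPKM in untreated WT, at 829, 828 and 803 FPKM in untreated KO and at 653, 609 and 491 FPKM in AraC-treated WT libraries. AraC-treated KO libraries had 727, 855 and 266 FPKM, the last being replicate 3. The untreated groups overlapped, since the highest WT library (804 FPKM) lay just above the lowest KO library (803 FPKM). The log2 difference of 0.20 did not pass (limma adjusted p = 0.70). KO AraC replicate 3 enters that test through the shared estimate of the spread. As a share of the 13-gene sum MT-ND6 took 2.35% to 2.69% in untreated WT and 3.03% to 3.14% in untreated KO libraries, without overlap. With AraC the log2 difference was -0.08 (limma adjusted p = 0.88) and, without KO AraC replicate 3, 0.44 (limma adjusted p = 0.021), so 1 library decides its direction. The MT-ND6 to MT-ND5 ratio of FPKM was 0.54 to 0.71 in the 6 WT libraries, 0.98 to 1.18 in 5 KO libraries and 0.35 in KO AraC replicate 3. No source used here states the strandedness, and its part in either value was not tested.

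**Figure D3:**
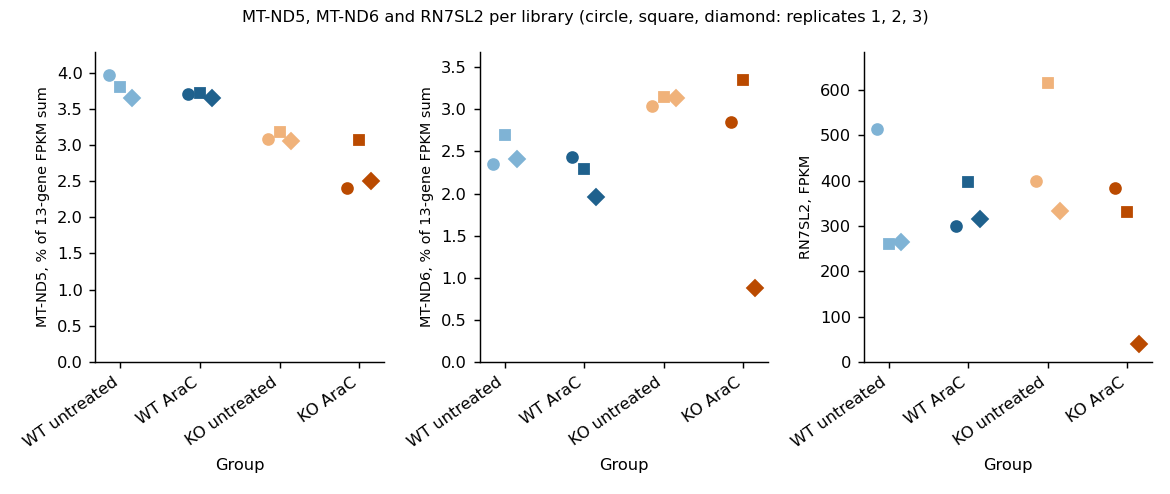
MT-ND5 and MT-ND6 as a percentage of the summed FPKM of the 13 mitochondrial genes, and RN7SL2 in FPKM, in each of the 12 libraries. MT-ND5 takes at most 3.17% in KO and at least 3.65% in WT libraries, and KO AraC replicate 3 is the lowest library for MT-ND6 (0.875%) and for RN7SL2 (39.1 FPKM).

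The other mitochondrial calls between genotypes were smaller. MT-ND2, a membrane arm core subunit, was at 1624, 1823 and 1695 FPKM in untreated WT and at 1514, 1458 and 1397 FPKM in untreated KO libraries (log2 difference -0.23, limma adjusted p = 0.026). MT-CO1 was at 4933, 5131 and 4736 FPKM against 4437, 4244 and 4054 FPKM (log2 difference -0.22, limma adjusted p = 0.039). Neither pair of groups overlapped, and the call of MT-CO1 is absent with quantile normalization, where its difference is 0 because it ranks first in all 12 libraries. With AraC neither gene passed, with log2 differences of -0.09 for both.

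NDUFA12 had the largest rise called among the members, from 37.6, 38.9 and 37.4 FPKM in untreated WT to 52.9, 52.4 and 58.7 FPKM in untreated KO libraries. Its groups were far apart, and the log2 difference was 0.52 ± 0.06 (SE, limma adjusted p = 0.00012). NDUFS4 went from 27.6, 27.9 and 26.3 FPKM to 34.2, 36.7 and 33.9 FPKM (log2 difference 0.35, limma adjusted p = 0.00027). In the membrane arm NDUFB6 rose from 29.1, 31.9 and 27.1 FPKM to 34.1, 38.99 and 41.0 FPKM (log2 difference 0.37, limma adjusted p = 0.0061), and NDUFB3, NDUFB4, NDUFB1 and NDUFA3 by 0.22, 0.20, 0.25 and 0.29. The assembly factors NDUFAF3 and NDUFAF4 rose by 0.21 and 0.23 (limma adjusted p = 0.012 and 0.04), while NDUFAF1, NDUFAF2, NDUFAF5, NDUFAF7 and NDUFAF8 did not pass, at -0.03, -0.24, 0.01, 0.05 and -0.16. Of the genes outside the rule, NDUFAF6 was lower in KO cells by -0.35 without and -0.37 with AraC (limma adjusted p = 0.0072 and 0.0052), and NDUFB9 did not pass, at -0.22 and -0.16.

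With AraC in both genotypes, 11 of 43 nuclear genes were higher in KO than in WT cells and none lower, and MT-ATP8 was higher and MT-ND5 lower among the mitochondrial genes. Across all genes 30.2% passed, 15.4% higher and 14.8% lower. The nuclear median was 0.11, and the mitochondrial median of 0.07 turned to -0.01 with TPM and with quantile scaling, against 0.00 over all genes on the deposited scale. With TPM scaling 8 nuclear genes were higher and 5 lower, and with plain totals 8 and 4; 8 were called higher under all 4 scalings. At an unadjusted p under 0.05, 19 nuclear genes passed, and limma-voom called 11 higher and 2 lower. Without WT AraC replicate 2 the calls were 6 higher and 1 lower.

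NDUFB6 stood at 22.2, 21.9 and 24.9 FPKM in AraC-treated WT and at 33.2, 29.4 and 32.0 FPKM in AraC-treated KO libraries (log2 difference 0.44, limma adjusted p = 0.0018). NDUFAF3 was at 17.9, 18.9 and 17.4 FPKM against 25.3, 22.4 and 24.2 FPKM (log2 difference 0.40, limma adjusted p = 0.00026). NDUFB4, NDUFA6 and NDUFS6 were higher by 0.30, 0.28 and 0.22 (limma adjusted p = 0.0034, 0.0041 and 0.0042). The groups of these 5 genes did not overlap. Of the 10 nuclear genes higher in KO cells without AraC, 7 were also higher with it: NDUFB4, NDUFB3, NDUFA6, NDUFA12, NDUFB6, NDUFAF3 and NDUFA3. No share over all genes is given for the 7. The 6 assembly factors other than NDUFAF3 did not pass, with log2 differences of -0.08 for NDUFAF1, -0.24 for NDUFAF2, -0.06 for NDUFAF4, -0.08 for NDUFAF5, 0.09 for NDUFAF7 and -0.04 for NDUFAF8. MT-ATP8 was at 395, 455 and 415 FPKM in WT and 485, 468 and 547 FPKM in KO libraries (log2 difference 0.24, limma adjusted p = 0.04), and without KO AraC replicate 3 it was 0.18 (limma adjusted p = 0.12). Without WT untreated replicate 1, WT AraC replicate 1 or 3, KO AraC replicate 1 or any 1 of the untreated KO libraries, 1 mitochondrial gene passed in this comparison, lower in KO cells.

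**Figure D4:**
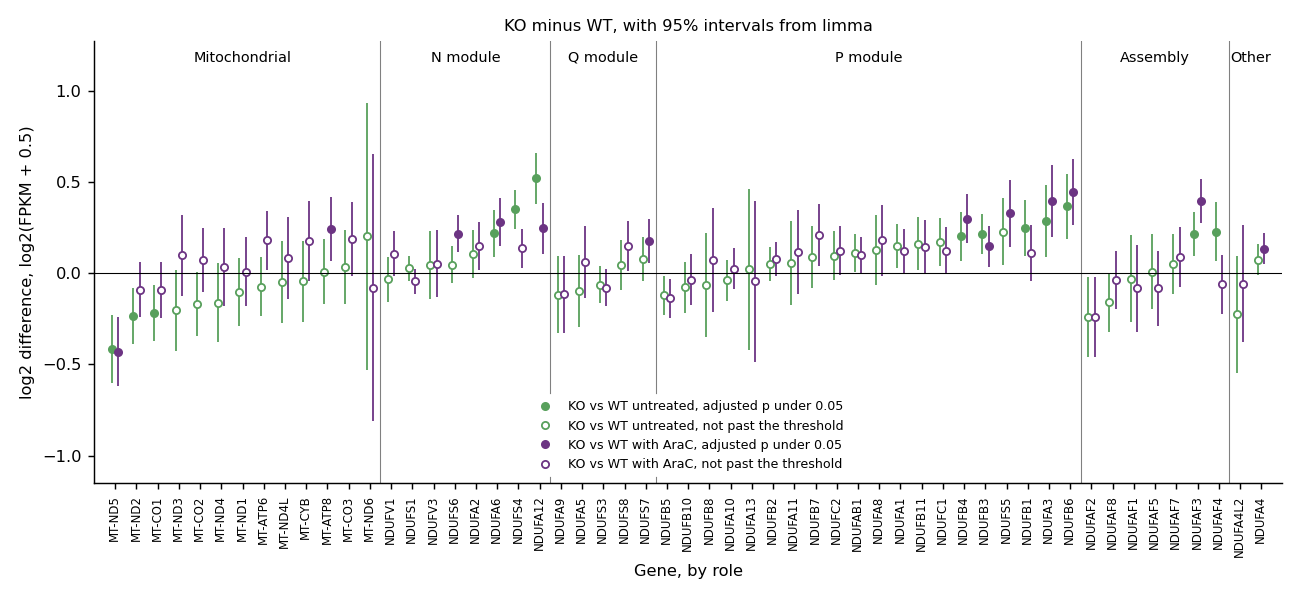
Log2 difference between KO-labelled and WT libraries, with 95% limma intervals, for the same genes without AraC (green) and with AraC (purple) on the deposited scale. MT-ND5 lies below 0 in both comparisons and NDUFA12, NDUFB6, NDUFA3, NDUFB4 and NDUFAF3 above 0, under all 4 scalings.

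Set against each other, the mitochondrial and nuclear sums gave a ratio that needs no scaling between libraries. It was 19.8, 20.9 and 19.5 in untreated WT, 23.1, 22.7 and 20.2 in AraC-treated WT, 17.7, 16.6 and 16.1 in untreated KO and 19.1, 20.5 and 21.1 in AraC-treated KO libraries. Untreated KO libraries were the lowest of all 12 and overlapped no other group. The ratio differed by -0.26 on the log2 scale between untreated KO and WT, with 26437 against 28785 FPKM in the mean mitochondrial sum and 1576 against 1435 FPKM in the mean nuclear sum. AraC went with a ratio higher by 0.27 in KO cells, without overlap, and by 0.13 in WT cells, where 20.2 in WT AraC replicate 3 lay below 20.9 in WT untreated replicate 2. Between the treated genotypes the difference was -0.12, with overlap. Since the members were chosen with earlier results known, no p is given for these sums.

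On the deposited scale the nuclear sum with AraC was lower without overlap in both genotypes, from 1427 to 1444 FPKM down to 1164 to 1236 FPKM in WT and from 1544 to 1598 FPKM down to 1245 to 1441 FPKM in KO cells. The mitochondrial sum went from 28166 to 29874 FPKM down to 25014 to 26878 FPKM in WT cells, and in KO cells the groups overlapped. As a share of all FPKM the nuclear sum was again lower without overlap, from 0.499% to 0.508% down to 0.472% to 0.490% in WT and from 0.542% to 0.551% down to 0.490% to 0.521% in KO cells. The mitochondrial share was 9.90% to 10.5% without and 9.92% to 10.9% with AraC in WT cells, with overlap, and 8.84% to 9.58% without and 9.88% to 11.02% with AraC in KO cells, without overlap. The direction of the mitochondrial sum with AraC thus depended on the scaling. NDUFS5 alone made up 14.99% to 18.9% of the nuclear sum. Without it the ratio differences were 0.10 with AraC in WT, 0.25 with AraC in KO and -0.24 between the untreated genotypes, and without KO AraC replicate 3 the AraC difference in KO cells was 0.24. Taken as a mean of log values, which weighs all genes alike, they were 0.02, 0.14 and -0.18. On that measure KO AraC replicate 1 (6.447) lay below KO untreated replicate 1 (6.457). The KO groups thus overlapped, and the untreated KO libraries no longer lay below all others.

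**Figure D5:**
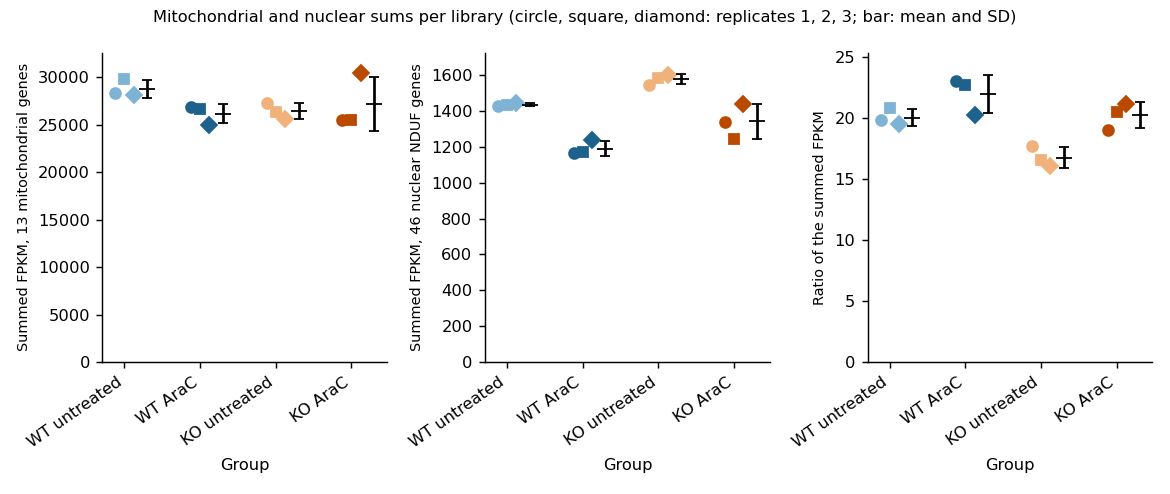
Summed FPKM of the 13 mitochondrial genes, summed FPKM of the 46 nuclear NDUF genes and their ratio in each library, with the mean and SD of each group of 3. The untreated KO libraries have the 3 lowest ratios (16.1 to 17.7), and the treated WT libraries the 3 lowest nuclear sums (1164 to 1236 FPKM).

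Whether the AraC response differed between genotypes was tested by the interaction, the AraC difference in KO minus that in WT cells. It called 0 of 13 mitochondrial and 0 of 43 nuclear genes in limma, against 2.69% of all genes, 0.887% higher and 1.8% lower. At an unadjusted p under 0.05, 1 mitochondrial and 5 nuclear genes passed, limma-voom called 0 of both, TPM scaling 2 nuclear genes lower and plain totals 1. The largest nuclear values were those of NDUFAF4 at -0.29, NDUFA12 at -0.27 and NDUFS4 at -0.22 (limma adjusted p = 0.18, 0.14 and 0.13). Behind these stood NDUFA12 values of 37.4 to 38.9, 39.3 to 43.2, 52.4 to 58.7 and 43.9 to 51.6 FPKM in the WT libraries without and with AraC and the KO libraries without and with AraC. Its treated libraries lay above the untreated in WT and below in KO cells. Over the mitochondrial genes the median interaction was 0.16, and 0.08 without KO AraC replicate 3. MT-ND3 was the highest of them at 0.30 and MT-ND6 the lowest at -0.28 (limma adjusted p = 0.29 and 0.80). For MT-ND5 the interaction was -0.01 with a 95% interval of -0.28 to 0.25.

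Genes around complex I were counted from lists of the other respiratory complexes and of the machinery of mitochondrial DNA and RNA. With AraC in WT cells 2 of 4 genes of complex II, 7 of 9 of complex III, 9 of 11 of complex IV and 16 of 18 of complex V were lower and none was higher on the deposited scale, where 25.6% of all genes were lower and 24.1% higher. With TPM scaling the lower and higher counts of these complexes were 1 and 1, 4 and 0, 5 and 1, and 11 and 1. The shares over all genes in this paragraph hold for the deposited scale only. UQCR10 of complex III, COX6B1 of complex IV and ATP5F1B of complex V, its catalytic subunit, had log2 differences of -0.54, -0.43 and -0.43 (limma adjusted p = 2.4e-05, 6.8e-05 and 1.0e-05). In KO cells the counts were 3, 6, 9 and 14 lower and none higher, against 24.7% lower and 19.8% higher of all genes, with -0.38, -0.32 and -0.45 for the same 3 genes. With TPM scaling they were 1, 4, 5 and 9 lower and 0, 0, 1 and 1 higher. Other complex I assembly factors held 3 of 12 lower and 1 higher in WT and 5 lower in KO cells, with DMAC1 at -0.33 and -0.44. The 3 of 12 in WT cells are near the share over all genes, and with TPM scaling 1 was lower and 4 were higher there.

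Of 9 tested genes of mitochondrial transcription 3 were lower and 1 higher in both genotypes, near the share over all genes. TFB2M, a transcription initiation factor, changed by -0.68 in WT and -0.78 in KO cells, and POLRMT, the mitochondrial RNA polymerase, by -0.63 and -0.67 (limma adjusted p at most 3.9e-05). Of 19 genes of RNA processing and stability 13 were lower in each genotype and 1 was higher in WT cells, with TBRG4 at -0.60 and -0.54; with TPM scaling 10 were lower and 4 higher in WT cells and 11 and 1 in KO cells. Of 14 genes of mitochondrial DNA replication 5 were lower and 3 higher in WT cells, and 7 and 3 in KO cells. The 5 of 14 in WT cells are near the share over all genes, and with TPM scaling 3 were lower and 4 higher there and 4 and 4 in KO cells. TWNK, the replicative helicase, changed by -0.78 and -0.83, and PRIMPOL, a primase-polymerase that restarts stalled forks, by 0.79 and 0.59. Of 9 tested nuclear regulators 8 were lower in WT and 7 in KO cells, with NRF1 at -0.74 and -0.50 and the coactivator PPRC1 at -0.71 and -0.83; with TPM scaling 5 and 4 were lower and none was higher.

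Between genotypes 14.9% of all genes were higher and 12.6% lower in KO cells without AraC, and 15.4% and 14.8% with it. TFAM, which packages mitochondrial DNA and starts its transcription, was higher in KO cells by 0.43 without and 0.29 with AraC (limma adjusted p = 5.7e-05 and 0.001). SDHC, a membrane anchor of complex II, was higher by 0.35 and 0.31 (limma adjusted p = 0.00018 and 0.00047). LRPPRC, which stabilises mitochondrial messages, was lower by -0.22 and -0.31 (limma adjusted p = 0.00038 and 3.7e-05). Complexes IV and V held 2 of 11 and 3 of 18 genes higher in untreated KO cells, near the share over all genes, and 5 and 5 with AraC. With AraC and TPM scaling complex IV held 4 higher and 2 lower and complex V 1 higher and 5 lower, so the direction of complex V there turned with the scaling. One gene of complex V, ATP5IF1, was lower without AraC (-0.25, limma adjusted p = 0.0025). Complex III held 2 of 9 lower without AraC and 2 higher and 1 lower with it; 2 of these 9 genes lie on chromosome 8 or 13, and without them 1 of 7 was lower without AraC and 2 were higher and none lower with it. Mitochondrial DNA replication held 1 of 14 higher and 4 lower without AraC and 1 and 3 with it, and other complex I assembly factors 1 of 12 higher and 3 lower without AraC and 0 and 2 with it. Without the genes on chromosomes 8 and 13 these lists held 1 of 12 higher and 2 lower and 1 of 11 higher and 2 lower without AraC. With AraC the genes left that passed were POLG (0.11) and PRIMPOL (-0.24) in DNA replication and ECSIT (-0.27) in the assembly factors.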

How the data were processed

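The table holds FPKM per gene for 12 libraries. Tools listed in the submitters' processing notes are featureCounts 1.5.0-p3, HISAT2 2.0.5 and fastp, on hg38 (GRCh38). Library preparation, strandedness and tool settings are not stated in any source used here. The authors deposited FPKM values that already carry a scaling between libraries: FPKM times gene length gave whole reads within 0.001 for 100% of values, and the implied library sizes followed median-of-ratios factors rather than read totals. All 58735 identifiers matched GENCODE 29.

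Genes with at least 1 FPKM in at least 3 libraries (13300) entered limma 3.58.1 (R 4.3.3) on log2(FPKM + 0.5), with a mean per group, a variance trend and 8 residual degrees of freedom. Differences on this scale understate changes of low genes. P-values are two-sided and adjusted by Benjamini-Hochberg over all genes. The procedure was run on simulated data as a check of the code. Genes were changed there in the AraC-treated WT group only and with a fixed spread, so it cannot vouch for the calls reported here.

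Members, lists and alternatives were chosen with earlier results of these data known. Named are all mitochondrial genes, all assembly factors, the 5 nuclear members with the smallest adjusted p per comparison, the 3 highest and 3 lowest, up to 3 genes per pathway list, and others for contrast, chosen after their values were seen. A gene named by this rule is not reported here by name, though the counts include it.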

Additional observations from a re-analysis of the deposited data

How the results depend on the processing

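Over the settings other than leaving out a library, 1653 of the single-gene results kept their direction and their side of the threshold, 75 no longer passed, 87 passed newly and 9 reversed; over the settings that leave out a library the numbers were 1747, 84, 28 and 1. The nuclear counts of both AraC comparisons stayed within 1.5 times their value in every setting run, but their split by direction did not, as given beside them. The single mitochondrial call of AraC in WT cells became 0 with no filter, TPM scaling, plain totals or TPM scaling without mitochondrial genes, 2 with a filter at 5 FPKM, 4 with quantile normalization, 7 with limma-voom and 5 with only the groups compared. The 0 mitochondrial calls of AraC in KO cells became 7 with TPM scaling, 4 with plain totals, 9 with TPM scaling without mitochondrial genes, 4 with quantile normalization and 2 with limma-voom. The 3 mitochondrial calls of KO against WT without AraC became 1 with no filter and 5 with TPM scaling, with or without mitochondrial genes, limma-voom or only the groups compared. The 2 with AraC became 1 with no filter, plain totals, quantile normalization, robust variance, only the groups compared or the replicate block, and 4 with limma-voom. The interaction called 358 of all genes, 587 with TPM scaling, 548 with plain totals, 572 with TPM scaling without mitochondrial genes, 625 with limma-voom and 238 with the replicate block. Nuclear interaction calls were 2 with either TPM scaling and 1 with plain totals. The log2 ratio differences moved to 0.022, 0.14 and -0.18 with a mean of logs, as given in the text, and that of AraC in KO cells to 0.20 by summed reads.

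Reversed were MT-ATP8, MT-CYB and MT-ND5 with AraC in WT cells under quantile normalization (0.21, 0.28 and 0.29), where few genes share the top ranks. NDUFB3 with AraC in WT cells became 0.059 with TPM scaling, 0.021 with plain totals, 0.068 with TPM scaling without mitochondrial genes and 0.050 with quantile normalization. NDUFS4 with AraC in KO cells became 0.11 and 0.13 with TPM scaling, with and without mitochondrial genes, and MT-ND6 between treated genotypes ranged from -0.40 without KO AraC replicate 2 to 0.44 without KO AraC replicate 3; the cause was not tested in any of these.

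Leaving out each library in turn gave 127 to 341 interaction calls over all genes, lowest without WT AraC replicate 2 and at most 205 without any library other than KO untreated replicate 1 and KO AraC replicates 2 and 3. Mitochondrial calls ranged from 0 to 7 for AraC in WT (7 without KO AraC replicate 3, 2 without KO AraC replicate 1) and from 0 to 2 for AraC in KO (2 without KO AraC replicate 2). They ranged from 1 to 5 for KO against WT untreated and from 1 to 2 with AraC. Nuclear calls ranged from 5 to 14 and from 7 to 15 in those comparisons. The labels state no pairing by replicate number. Correlations of the within-group deviations were -0.05 to 0.12 for same-numbered and -0.10 to 0.11 for differently numbered libraries. Such values cannot exclude a pairing. With the replicate block 12 nuclear genes passed between genotypes both without and with AraC, against 11 and 11. Under this block the only counts of calls to move by over 1.5 times were the 2 given above. These were the mitochondrial calls with AraC between genotypes and the interaction calls.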
